A study of Mus musculus with 12 samples.

Results

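The genes described are the NF-kB transcription factor subunits and proteins that restrain them. They are the 5 subunit genes Nfkb1, Nfkb2, Rel, Rela and Relb, the IkB genes Nfkbia, Nfkbie and Nfkbiz, and Tnfaip3, which encodes the ubiquitin-editing enzyme A20. These 9 genes were taken by name, and 8 of them, out of 18193 genes measured, had a probe set that carries their symbol alone. Nfkb1 had none and was not analysed here. The 8 genes had 17 such probe sets, and the brightest of a gene, on average over the 12 arrays, gives its main value. All levels are log2 intensities, so a difference of 1 is a 2-fold change, and levels of different genes are not compared.

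The arrays hold total RNA of sorted cells from C57Bl/6 mice aged 10 to 12 weeks. From bone marrow came haematopoietic stem cells (HSC, 3 arrays), sorted as lineage-negative, cKit+, Sca1+, CD150+ and Flt3-, and multipotent progenitors (MPP, 3 arrays), sorted as lineage-negative, cKit+, Sca1+, CD150- and Flt3+. Also from marrow came PreMegE cells (4 arrays), progenitors of the platelet and red cell lineages, which were lineage-negative, cKit+, Sca1-, CD150+, CD105- and CD41-. Spleen gave mature CD4+ T cells (2 arrays), which were negative for CD8, B220 and NK1.1. The HSC and MPP arrays belong to this study, while those of PreMegE cells and CD4+ T cells came from separate earlier work. Outside MPP against HSC, population and study cannot be told apart. The HSC and MPP replicates were sorted separately, but the labels do not say for any population whether replicates came from separate animals or pools, so the p-values cover only the spread between these arrays, which may be technical. In such bulk samples, fewer cells that express a gene and less RNA per cell cannot be told apart.

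NF-kB factors bind DNA as pairs of Rel-family subunits. In unstimulated cells IkB proteins hold them in the cytoplasm, and signals from cytokine, Toll-like and antigen receptors activate the IKK kinases, which mark IkB for destruction and free the dimers. The freed factors switch on inflammatory and survival genes and also several of their own inhibitors, among them Nfkbia and Tnfaip3, which dampens the response. In blood formation the pathway is known for its part in lymphocyte development and activation.

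Because the factors are known to act on genes of their own pathway, the starts of the member genes were searched for the kappaB consensus, the 10-letter sequence that NF-kB binds, on both strands. The RefSeq table of build GRCm38.p6 held a window for 6 of the 9 genes, which were Nfkb2, Rel, Rela, Nfkbia, Nfkbie and Tnfaip3. The 250 bases before the start, 5′ to 3′ along the gene's strand, follow for the 5 members that hold a match, with matches on either strand in capitals.
Nfkbia, chr12:55492648-55492897, minus strand: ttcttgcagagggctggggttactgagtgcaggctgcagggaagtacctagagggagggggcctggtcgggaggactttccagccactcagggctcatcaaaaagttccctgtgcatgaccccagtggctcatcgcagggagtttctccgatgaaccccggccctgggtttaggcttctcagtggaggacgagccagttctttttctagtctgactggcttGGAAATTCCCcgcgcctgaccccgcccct
Tnfaip3, chr10:19015411-19015660, minus strand: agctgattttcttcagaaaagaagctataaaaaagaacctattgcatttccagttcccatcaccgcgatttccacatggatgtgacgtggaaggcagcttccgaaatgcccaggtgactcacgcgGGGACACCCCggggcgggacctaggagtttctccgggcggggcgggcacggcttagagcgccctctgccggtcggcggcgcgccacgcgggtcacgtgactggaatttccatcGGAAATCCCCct
Rel, chr11:23770970-23771219, minus strand: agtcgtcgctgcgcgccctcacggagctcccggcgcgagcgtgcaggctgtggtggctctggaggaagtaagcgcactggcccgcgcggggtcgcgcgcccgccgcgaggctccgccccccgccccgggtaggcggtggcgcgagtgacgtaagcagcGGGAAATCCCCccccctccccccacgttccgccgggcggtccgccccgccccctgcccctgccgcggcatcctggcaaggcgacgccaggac
Nfkb2, chr19:46304487-46304736, plus strand: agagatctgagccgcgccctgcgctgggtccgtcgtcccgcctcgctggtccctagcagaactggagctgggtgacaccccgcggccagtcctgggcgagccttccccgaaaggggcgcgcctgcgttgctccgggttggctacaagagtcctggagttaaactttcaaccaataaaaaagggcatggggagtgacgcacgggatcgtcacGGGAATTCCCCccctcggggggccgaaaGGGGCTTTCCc
Nfkbie, chr17:45555450-45555699, plus strand: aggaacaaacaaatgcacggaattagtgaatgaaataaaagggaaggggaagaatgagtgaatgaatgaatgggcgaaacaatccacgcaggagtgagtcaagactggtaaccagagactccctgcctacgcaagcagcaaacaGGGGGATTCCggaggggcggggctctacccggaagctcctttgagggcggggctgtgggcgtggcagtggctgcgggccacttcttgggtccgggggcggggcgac

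The Nfkbia match, GGGAATTTCC on the opposite strand, lay 29 to 20 bases before the start. In the Tnfaip3 window above a match lay 125 to 116 bases and another 12 to 3 bases before the start, and its other window had none. The Rel stretch, 92 to 82 bases before the start, was matched 3 times on overlapping positions of both strands, and the Nfkbie match lay 106 to 97 bases before it. Nfkb2 has 3 annotated starts. Its window above had a stretch of 3 overlapping matches 39 to 29 bases before the start and a further match 11 to 2 bases before it, and its other windows had 1 match each. Rela had no match, which says only that these letters are not in its window. Of the 27025 genes in RefSeq's table, 4.46% had a match in any window, and of the 32851 windows 3.9%. A match is a description of the letters and not of binding, which was not measured.

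Median intensities per array were 14.4 to 15.6 on the linear scale, and arrays of the same population had correlations of 0.984 to 0.994 across genes. The summed level of each set of marker genes was highest in the population it marks. T cell markers (6 measured) summed to intensities of 8405 and 8203 on the CD4+ T cell arrays and to 86.5 to 142 on the others. MPP markers (4) summed to 5672 to 6222 in MPP and 205 to 235 in HSC, with 3524 and 3877 on the CD4+ T cell arrays, where 2 of these genes, Cd48 (10.22) and Satb1 (11.17), had their highest means. PreMegE markers (5) summed to 6258 to 8975 in PreMegE and 2850 to 3077 in HSC, and HSC markers (5) to 3291 to 3621 in HSC and 2260 to 2513 in MPP. Neutrophil markers (6) summed to 503, 4055 and 423 on HSC replicates 1 to 3, 119 to 273 in MPP and 603 to 2376 in PreMegE. In PreMegE 6 of them were called higher and 0 lower than in MPP, and 1 higher and 0 lower than in HSC, and their part in the members' differences was not tested. Every member's mean lay above the lower quartile of all genes in every population. Single arrays lay under the array's own lower quartile for Rel (HSC replicate 2 and PreMegE replicates 1 and 3) and, in PreMegE, for Relb and Nfkbiz.

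The HSC arrays also differed in sex-linked transcripts, and the labels give no sex. Xist, the RNA that silences an X chromosome in females, was at 2.45 and 2.59 on HSC replicates 2 and 3 and at 10.91 to 12.44 on the other 10 arrays. The Y-linked Eif2s3y was at 7.46 and 8.47 on those 2 HSC arrays and at 2.31 to 2.71 elsewhere. One setting, chosen after seeing the data, kept HSC replicate 1 as the only HSC array. Its spread is then taken from the other populations, so p-values are not given. In that fit fewer of all genes were called too, in MPP and in PreMegE against HSC. Rel, Tnfaip3, Nfkbiz and Nfkbia were still called higher in MPP than in HSC, while Nfkbie (0.65) and Relb (1.01) were not called. Against that array Tnfaip3 (-1.24) was called lower in PreMegE cells, beside Nfkbiz and Nfkbia. In CD4+ T cells Rel, Relb and Nfkbie were called higher, while Rela (0.85), Tnfaip3 (0.76) and Nfkbiz (-0.16) were not called. The part of sex in the members' differences was not tested.

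In MPP against HSC, 6 of the 8 members were called higher in MPP and 0 lower, by limma at a Benjamini-Hochberg adjusted p under 0.05. Of all genes 11.3% were called in this comparison, 6.38% higher and 4.93% lower. The median difference of the 8 members was 0.91, against -0.03 over all genes. The MPP arrays lay above the HSC arrays without overlap for 8 of 8 members, and 29.8% of all genes did not overlap in either direction. The called members were Nfkbiz, Rel, Tnfaip3, Nfkbia, Nfkbie and Relb.

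Against MPP, PreMegE cells had 7 members lower and 0 higher, with a median of -1.62, and Rela was the member not called. The background there was 33% of all genes called, 13.5% higher and 19.5% lower, and 39.3% without overlap. Against HSC, 2 members were lower in PreMegE, Nfkbiz and Nfkbia, and 0 higher, which is a share near the background of 28.9% (11.9% higher, 17% lower, 31.6% without overlap).

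In CD4+ T cells 6 members were higher than in HSC and 0 lower, where 37.8% of all genes were called (17% higher, 20.8% lower, 54.3% without overlap). Against PreMegE 7 were higher and 0 lower (33.1% of all genes called, 16.3% higher, 16.8% lower, 43.9% without overlap). Against MPP 2 were higher, Relb and Nfkbie, and 4 lower, Rel, Nfkbia, Nfkbiz and Tnfaip3 (35.5% of all genes called, 15.5% higher, 20% lower, 57.8% without overlap). The 6 comparisons share arrays, so their values stand side by side and are not independent of each other.

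**Figure D1:**
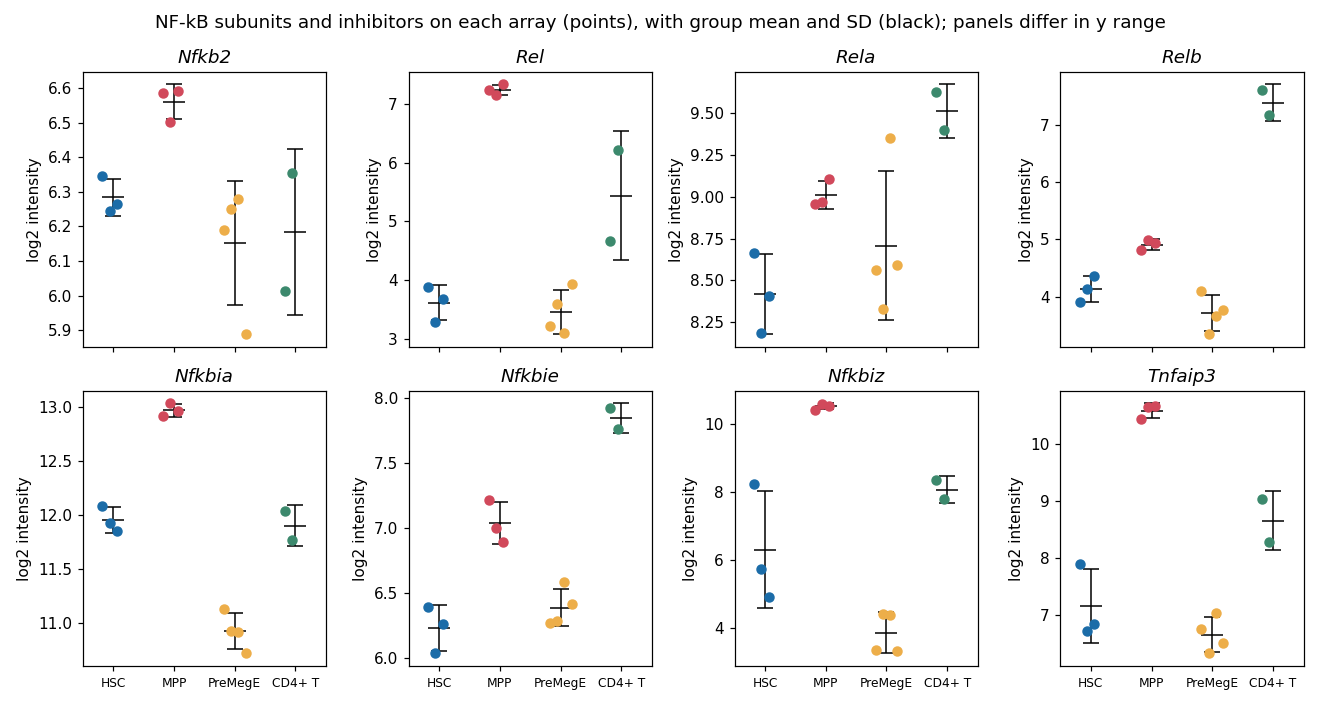
Log2 intensity of each measured member on each of the 12 arrays (points), by population on the horizontal axis, with the group mean and SD (n = 3, 3, 4 and 2). The 3 MPP arrays lie above all other arrays for Rel, Nfkbia, Nfkbiz and Tnfaip3, while Relb and Nfkbie are highest on the 2 CD4+ T cell arrays.

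Rel encodes c-Rel, a transactivating subunit known mainly in lymphocytes. Rel was at 7.22, 7.14 and 7.33 on the MPP arrays and at 3.88, 3.30 and 3.68 on the HSC arrays. On the PreMegE arrays it was at 3.22, 3.60, 3.10 and 3.93, and on the CD4+ T cell arrays at 4.66 and 6.22. MPP stood above every other array, HSC and PreMegE overlapped, and the T cell arrays lay between and apart from each other. Rel was higher in MPP than in HSC by 3.61 ± 0.31 (SE, adjusted p = 1.89e-06), with no fold given because HSC replicate 2 lay under the lower quartile, and PreMegE against MPP gave -3.77 ± 0.29 (7.93e-08). CD4+ T cells were above HSC by 1.82 ± 0.35 (5.42e-04) and above PreMegE by 1.98 ± 0.33 (1.74e-04), and against MPP they gave -1.79 ± 0.35 (6.40e-04). The size of these T cell differences rests on which array is used. Without CD4+ T cell replicate 2 they were 1.04 against HSC and 1.20 against PreMegE, and without replicate 1 the value against MPP was -1.01, all still called. Between PreMegE and HSC the difference was -0.16 (adjusted p = 0.756), with a 95% interval of -0.78 to 0.46, so these neighbours in the order of means did not differ beyond their spread.

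Rela encodes p65, the transactivating subunit of the best-studied NF-kB dimer. Rela was at 8.66, 8.18 and 8.41 in HSC and at 8.96, 8.97 and 9.11 in MPP. It was at 8.56, 8.33, 9.35 and 8.59 in PreMegE and at 9.63 and 9.40 in CD4+ T cells. The populations were close together, with the T cells highest and PreMegE replicate 3 above the other PreMegE arrays. CD4+ T cells exceeded HSC by 1.10 ± 0.25 (adjusted p = 0.00201) and PreMegE by 0.80 ± 0.23 (0.0136), and the call against PreMegE ended without CD4+ T cell replicate 1 (0.115). MPP differed from HSC by 0.59 (adjusted p = 0.106, 95% interval 0.12 to 1.06), T cells from MPP by 0.50 (0.139) and PreMegE from MPP by -0.30 (0.303). Without PreMegE replicate 3 these were called, at adjusted p of 0.0210, 0.0343 and, for -0.52, 0.0176. In a fit of only the populations compared, MPP against HSC (0.0306) and T cells against MPP (0.0292) were called too. With PreMegE replicates 3 and 4 averaged, MPP against HSC was called as well (0.0449). PreMegE and HSC differed by 0.29 (0.348), with an interval of -0.15 to 0.73.

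Relb encodes a subunit of the slower, non-canonical arm of the pathway. Relb was at 7.63 and 7.18 in CD4+ T cells and at 4.81, 4.99 and 4.94 in MPP. It was at 3.90, 4.13 and 4.35 in HSC and at 4.10, 3.34, 3.66 and 3.77 in PreMegE. The T cell arrays stood clear of all others, MPP came next without overlap with HSC, and HSC and PreMegE overlapped. Relb was higher in T cells than in HSC by 3.27 ± 0.22, or 9.67-fold (adjusted p = 8.31e-09), than in MPP by 2.49 ± 0.22 (2.05e-07) and than in PreMegE by 3.68 ± 0.21 (9.37e-10). PreMegE against MPP gave -1.19 ± 0.18 (9.97e-05). MPP exceeded HSC by 0.78 ± 0.20 (0.0167), and leaving out single arrays ended this call, with adjusted p of 0.0744 for HSC replicate 1, 0.0646 for MPP replicate 2 and 0.0628 for MPP replicate 3. PreMegE differed from HSC by -0.41 (0.115), and by -0.54 without PreMegE replicate 1, which was called (0.0348). B cell markers (4 measured) summed to 266 and 285 on the CD4+ T cell arrays and to 56.9 to 106 elsewhere, with Ms4a1 at a mean of 6.61 in T cells. Of them 3 were called higher and 1 lower in T cells than in HSC, the latter Pax5 (3.41 against 4.15). Of 4 natural killer cell markers 2 were called higher and 1 lower in T cells than in HSC, and of 4 dendritic cell markers 0 and 1. Of all genes 37.8% were called there. The part of these marker lists in the T cell levels of Relb, Nfkbie and Rela was not tested.

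Nfkb2 encodes p100, which is both the precursor of the p52 subunit and an IkB-like inhibitor. On its brighter probe set it was at 6.34, 6.24 and 6.27 in HSC and at 6.59, 6.50 and 6.59 in MPP. It was at 6.19, 6.25, 6.28 and 5.89 in PreMegE and at 6.01 and 6.35 in CD4+ T cells. These populations were close, with means spanning 0.41, and MPP alone did not overlap with any other. The single call was PreMegE against MPP (-0.41 ± 0.14, adjusted p = 0.0357). It ended without MPP replicate 1 (0.102), 2 (0.0677) or 3 (0.107) or PreMegE replicate 1 (0.0525) or 4 (0.107), and after quantile (0.197) or loess (0.0884) scaling, with a replicate block (0.123) and with the mean of both probe sets (0.366). MPP differed from HSC by 0.28 (0.312), with an interval of -0.04 to 0.60, and T cells from HSC by -0.10 (0.705). The dimmer probe set differed in T cells, with a mean of 6.83 there and 5.46, 5.32 and 5.42 in HSC, MPP and PreMegE. On it Nfkb2 was higher in T cells than in HSC by 1.37 (1.17e-05) and than in MPP by 1.52 (4.83e-06), so the level of Nfkb2 in T cells rests on the probe set.

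Nfkbia encodes IkBa, the inhibitor that is degraded and made anew in the course of a response. On its brightest probe set it was at 12.09, 11.93 and 11.85 in HSC and at 12.92, 13.04 and 12.96 in MPP. It was at 11.12, 10.93, 10.91 and 10.72 in PreMegE and at 12.04 and 11.77 in CD4+ T cells. The MPP arrays were highest and the PreMegE arrays lowest, with HSC and T cells overlapping between them. MPP exceeded HSC by 1.02 ± 0.15 (adjusted p = 2.90e-04), PreMegE against HSC gave -1.03 ± 0.14 (3.98e-05) and against MPP -2.05 ± 0.14 (1.93e-08). T cells against MPP gave -1.07 ± 0.17 (8.90e-05) and against PreMegE 0.98 ± 0.16 (1.24e-04). Between T cells and HSC the difference was -0.05 (0.858), with a 95% interval of -0.41 to 0.30.

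The 5 probe sets of Nfkbia did not give the same picture in every comparison. All 5 were higher in MPP than in HSC, by 1.02, 1.83, 2.30, 2.81 and 1.66 from the brightest to the dimmest, and lower in PreMegE than in MPP, at -2.05, -2.46, -2.24, -2.86 and -0.65. In CD4+ T cells the 4 dimmer probe sets lay above HSC, by 1.34, 1.32, 2.78 and 1.59, where the brightest differed by -0.05. PreMegE against HSC gave -1.03, -0.63, 0.05, -0.05 and 1.01, and with the mean of all 5 that call ended (-0.13, adjusted p = 0.540). T cells against MPP gave -1.07, -0.49, -0.98, -0.04 and -0.07. On the second brightest that call ended too (adjusted p = 0.0612). The dimmest ones, at -0.04 and -0.07, were not called either (limma, adjusted over all probe sets, 0.927 and 0.879). Beta-actin control probe sets near the transcript's 3′ end exceeded those near its 5′ end, a difference often used to judge RNA quality. It was 2.35 to 2.77 (log2) in HSC and MPP, 3.49 to 4.65 in PreMegE and 0.99 and 1.13 in CD4+ T cells. The same difference for Gapdh was 3.62 to 4.14 in HSC and MPP, 3.12 to 4.39 in PreMegE and 2.55 and 2.66 in CD4+ T cells. The actin values thus differed between HSC or MPP and PreMegE while the Gapdh values overlapped, and both were lowest in T cells. RNA quality and RNA preparation cannot be told apart in these values. The part of either in the members' differences was not tested.

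**Figure D2:**
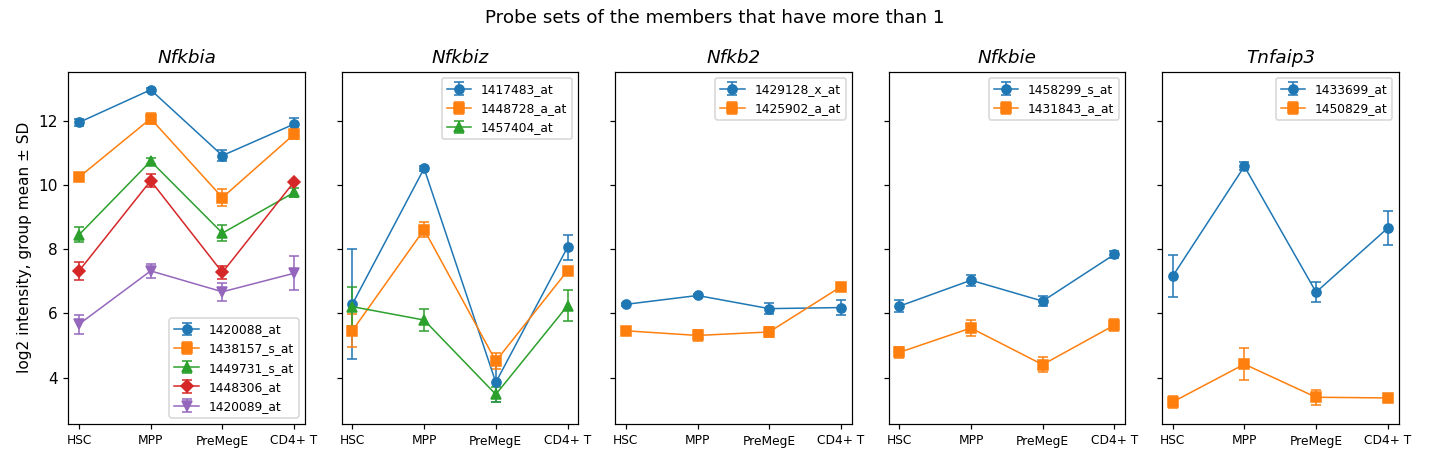
Mean log2 intensity ± SD by population for each probe set of the 5 members with more than 1, where lines join the means of a probe set. All 5 Nfkbia probe sets are higher in MPP than in HSC and PreMegE, only the brightest places CD4+ T cells level with HSC, and the 2 Nfkb2 probe sets part in CD4+ T cells.

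Nfkbie encodes IkBe, a further inhibitor that retains dimers in the cytoplasm. Nfkbie was at 6.39, 6.03 and 6.26 in HSC and at 7.22, 7.00 and 6.89 in MPP. It was at 6.27, 6.28, 6.58 and 6.41 in PreMegE and at 7.92 and 7.76 in CD4+ T cells. T cells were highest, MPP next, and HSC and PreMegE overlapped. MPP exceeded HSC by 0.81 ± 0.15 (adjusted p = 0.00262), and PreMegE against MPP gave -0.65 ± 0.14 (0.00233). T cells exceeded HSC by 1.61 ± 0.17 (1.67e-06), PreMegE by 1.46 ± 0.16 (3.06e-06) and MPP by 0.81 ± 0.17 (0.00149). The dimmer probe set gave 0.85 against HSC and 0.09 against MPP, where the call ended (0.812). PreMegE and HSC differed by 0.16 (0.487), with an interval of -0.15 to 0.47.

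Nfkbiz encodes IkBz, an inducible nuclear IkB protein that helps to switch on a subset of inflammatory genes. Nfkbiz was at 10.42, 10.59 and 10.54 in MPP and at 8.34 and 7.78 in CD4+ T cells. In HSC it was at 8.23, 5.74 and 4.92, and in PreMegE at 3.34, 4.40, 4.36 and 3.31. MPP was highest and PreMegE lowest without overlap, and HSC was the least uniform population, with replicate 1 among the T cell values. The means spanned 6.67, a span at or above that of 99.6% of genes. MPP exceeded HSC by 4.23 ± 0.58, or 18.7-fold (adjusted p = 1.63e-04), and PreMegE against MPP gave -6.67 ± 0.54 (1.44e-07). PreMegE against HSC gave -2.44 ± 0.54 (0.00283), and -1.47 (0.00415) without HSC replicate 1. T cells exceeded PreMegE by 4.21 ± 0.62 (4.76e-05), and against MPP gave -2.46 ± 0.65 (0.00683), a call that ended without CD4+ T cell replicate 2 (0.0648). Taking HSC replicate 1 as the only HSC array, MPP was still higher, by 2.29.

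The call of Nfkbiz between CD4+ T cells and HSC was not firm (1.77 ± 0.65, adjusted p = 0.0426), and its arrays overlapped. It ended without HSC replicate 2 (1.49, 0.130) or 3 (1.08, 0.173) and without CD4+ T cell replicate 1 (0.209) or 2 (0.0774). It also ended without MPP replicate 1 (0.0553), 2 (0.0559) or 3 (0.0545) or PreMegE replicate 4 (0.0502), which enter through the shared spread, after quantile normalisation (0.0660), in the fit of T cells and HSC alone (0.128) and with a replicate block (0.0826). Without HSC replicate 1 the value was 2.74 (4.34e-05), so this comparison turns on single HSC arrays. It differed between probe sets too, at 1.87 on the middle one and 0.03 on the dimmest. The middle probe set of Nfkbiz gave 3.15 for MPP against HSC and -0.95 for PreMegE against HSC, and the dimmest gave -0.42 and -2.74.

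Tnfaip3 encodes A20, which edits ubiquitin chains on signalling proteins upstream of IKK. Tnfaip3 was at 10.44, 10.65 and 10.67 in MPP and at 9.03 and 8.29 in CD4+ T cells. It was at 7.91, 6.72 and 6.86 in HSC and at 6.75, 6.34, 7.04 and 6.52 in PreMegE. MPP stood above all other arrays, T cells followed, and HSC replicate 1 was above both other HSC arrays, which lay among the PreMegE arrays. MPP exceeded HSC by 3.42 ± 0.28, or 10.7-fold (adjusted p = 1.08e-06), and PreMegE against MPP gave -3.92 ± 0.26 (1.60e-08). T cells exceeded HSC by 1.50 ± 0.31 (0.00115) and PreMegE by 2.00 ± 0.30 (5.74e-05), and against MPP gave -1.92 ± 0.31 (1.36e-04). PreMegE and HSC differed by -0.50 (0.190), with an interval of -1.06 to 0.06. The dimmer probe set had means of 3.24 to 4.42, and its HSC mean lay under the lower quartile of 3.35. Its means in PreMegE (3.39) and CD4+ T cells (3.37) lay near the lower quartiles there. That probe set gave 1.18 for MPP against HSC (0.00425), while T cells differed from HSC by 0.13 (0.774) and from PreMegE by -0.02 (0.970).

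**Figure D3:**
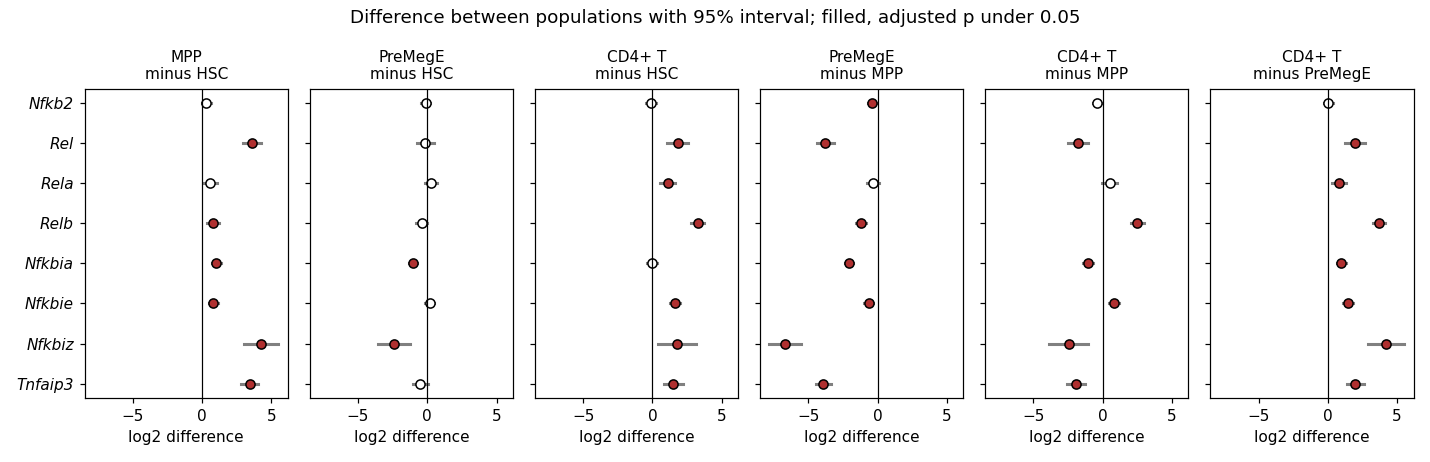
Log2 difference of each measured member in each of the 6 comparisons (point) with its 95% interval (line), where filled points have an adjusted p under 0.05. Nfkbiz, Rel and Tnfaip3 have the largest differences of the members in MPP against HSC (4.23, 3.61 and 3.42), and Relb the largest in CD4+ T cells against HSC (3.27).

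By population and on their main probe sets, Rel, Nfkbia, Nfkbiz and Tnfaip3 had their highest mean in MPP and their lowest in PreMegE, as did Nfkb2 on its brighter probe set over a narrow range. Relb, Nfkbie and Rela had their highest mean in CD4+ T cells. Other probe sets gave other orders, since 2 dimmer probe sets of Nfkbia and the dimmer one of Tnfaip3 were lowest in HSC, and the dimmest of Nfkbiz was not highest in MPP. The dimmer one of Nfkb2 was highest in CD4+ T cells and had its lowest mean in MPP, close to HSC and PreMegE. That of Nfkbie was lowest in PreMegE, where its brighter one was lowest in HSC. The dimmer one of Tnfaip3 lay under the lower quartile in HSC and near it in PreMegE and CD4+ T cells, so its order among these is uncertain. Over the 12 arrays, which fall into 4 populations and so mainly repeat the differences above, Nfkbiz correlated with Tnfaip3 at 0.95, with Nfkbia at 0.94 and with Rel at 0.88. Relb correlated with Nfkbie at 0.91 and with Rel at 0.47.

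Immediate early genes, which respond fast to signals and to the handling of cells, moved with several members. Of 16 such genes 12 were called higher and 1 lower in MPP than in HSC, with a median of 1.81. The median level of the list was 10.82, 10.85 and 10.84 on MPP replicates 1 to 3 and 9.62, 8.54 and 7.88 on HSC replicates 1 to 3. It was 5.17, 4.85, 5.25 and 5.08 on the PreMegE arrays and 8.02 and 7.59 on the CD4+ T cell arrays. HSC replicate 1 was the highest HSC array for this list and for 7 of the 8 members, and the lowest for Relb. In PreMegE 1 was higher and 14 lower than in HSC, and 1 higher and 15 lower than in MPP. In T cells 3 were higher and 8 lower than in HSC, 2 and 14 than in MPP, and 11 and 2 than in PreMegE. The part of this list in the levels of the members was not tested.

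**Figure D4:**
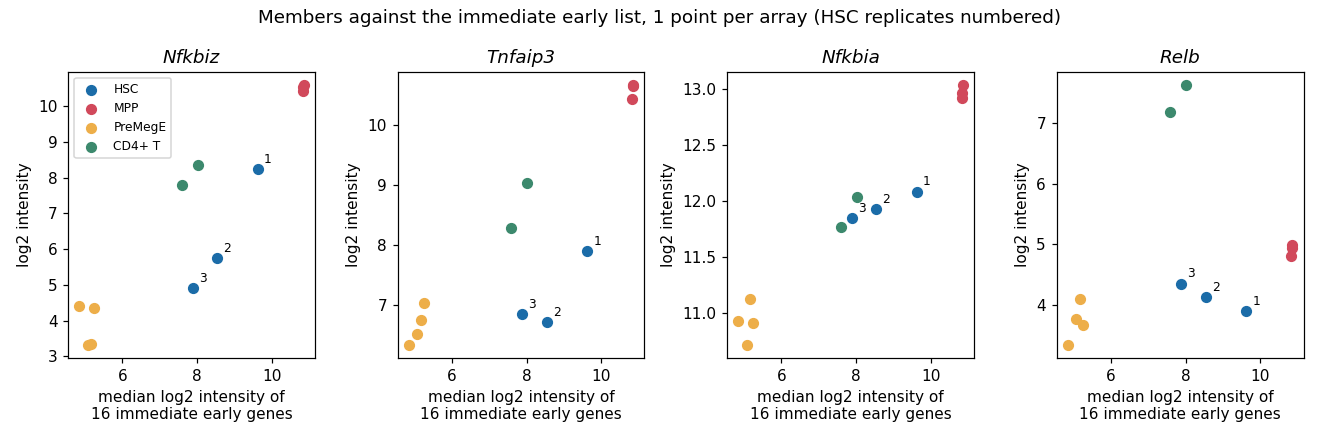
Log2 intensity of 4 members against the median log2 intensity of 16 immediate early genes, with 1 point per array coloured by population. Nfkbiz, Tnfaip3 and Nfkbia are highest on the 3 MPP arrays, where the list is highest too, whereas Relb is highest on the CD4+ T cell arrays, where the list is at 8.02 and 7.59.

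Macrophage and monocyte markers also differed between populations. The 4 measured, Csf1r, Cd14, Adgre1 and Cd68, summed to 443 to 479 in MPP, 118 to 276 in HSC, 68.6 to 99.9 in PreMegE and 377 to 383 in CD4+ T cells. In MPP the mean of Csf1r was 8.58, that of Cd68 5.24, that of Cd14 4.59 and that of Adgre1 4.05, and 2 of them, Csf1r and Cd68, were called higher than in HSC. Their part in the members' levels was not tested. Without HSC replicate 2, which carried more neutrophil transcripts, Nfkbiz, Rel, Tnfaip3, Nfkbia, Nfkbie and Relb were all still called higher in MPP, with Relb at an adjusted p of 0.0469.

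Other genes of the pathway were grouped by role. Some genes are in more than 1 list, and each count stands against the share of all genes called given above for its comparison. In MPP against HSC the share called was 0% of the kinases, 16.7% of the adaptors and 18.2% of the negative regulators below. It was 16.7% of the receptors and 22.2% of the ligands. With so few genes in a list, these shares are not far from the 11.3% of all genes called. Of the 4 other IkB genes measured, Nfkbid alone was called in MPP against HSC, higher by 2.48 ± 0.28 (adjusted p = 2.82e-05). Nfkbid, which like Nfkbiz encodes a nuclear IkB protein, was at 8.20 ± 0.09 (SD) in MPP, 5.72 ± 0.52 in HSC, 4.67 ± 0.12 in PreMegE and 7.08 ± 0.92 in T cells, the same order as Nfkbiz. In PreMegE 1 was higher and 2 lower than in HSC, the latter Bcl3 (-1.56 ± 0.17) and Nfkbid (-1.05 ± 0.26), and 1 was higher and 2 lower than in MPP, Nfkbid (-3.53 ± 0.26) and Bcl3 (-1.83 ± 0.17). T cells had 3 higher and 0 lower than HSC, 2 and 1 than MPP, and 3 and 0 than PreMegE. Bcl3, a nuclear partner of p50 and p52 homodimers, led these at 2.37 ± 0.20, 2.09 ± 0.20 and 3.93 ± 0.19. Nfkbib, which encodes IkBb, followed against HSC (1.97 ± 0.20) and MPP (1.64 ± 0.20), and Nfkbid against PreMegE (2.41 ± 0.30).

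Chuk, which encodes the kinase IKKa, was not analysed here. None of the 10 measured genes of the IKK complex and upstream kinases was called between MPP and HSC, where 11.3% of all genes were. Their median difference was -0.03, and by limma 0 of them had an unadjusted p under 0.05. In PreMegE 2 were higher and 2 lower than in HSC, and 1 higher and 2 lower than in MPP. The lower ones were Map3k7, which encodes the IKK-activating kinase TAK1 (-1.15 ± 0.26 and -1.06 ± 0.26), and Ikbke (-0.77 ± 0.14 and -1.02 ± 0.14). CD4+ T cells had 4 higher and 1 lower than HSC, 4 and 1 than MPP, and 3 and 1 than PreMegE. Ikbke, an IKK-related kinase, led there at 3.77 ± 0.16, 3.52 ± 0.16 and 4.54 ± 0.16, followed by Tank, a TRAF-binding adaptor (1.66 ± 0.21, 1.64 ± 0.21 and 1.18 ± 0.20).

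Of 12 adaptors and ubiquitin ligases measured, without Traf3, Ripk1 and Ripk2, which were not analysed here, 2 were higher and 0 lower in MPP than in HSC. These were Traf1 (0.90 ± 0.26, adjusted p = 0.0326) and the ubiquitin-conjugating Ube2n (0.56 ± 0.17, 0.0499), and neither was called in the fit of MPP and HSC alone. In PreMegE 3 were higher and 3 lower than in HSC, led by the ubiquitin ligase Birc3 (1.26 ± 0.15) and the adaptor Traf2 (-1.07 ± 0.19). Against MPP 2 were higher and 6 lower, led by Traf2 (-1.38 ± 0.19) and Ube2n (-1.28 ± 0.16). T cells had 7 higher and 1 lower than HSC, 6 and 2 than MPP, and 8 and 0 than PreMegE. Traf1 led with Traf5, at 4.57 ± 0.29 and 4.03 ± 0.22 against HSC, 3.66 ± 0.29 and 4.17 ± 0.22 against MPP, and 4.91 ± 0.27 and 4.72 ± 0.21 against PreMegE.

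Negative regulators outside the members gave 2 of 11 higher and 0 lower in MPP than in HSC. They were Zc3h12a (2.15 ± 0.23), a nuclease that degrades inflammatory mRNAs, and Otulin (0.94 ± 0.17), which removes linear ubiquitin chains. In PreMegE 1 was higher and 4 lower than in HSC, led by the ubiquitin ligase Itch (0.96 ± 0.17) and the A20 partner Tax1bp1 (-0.95 ± 0.16). Against MPP 1 was higher and 4 lower, led by Zc3h12a (-2.25 ± 0.22) and Otulin (-1.44 ± 0.16). T cells had 5 higher and 1 lower than HSC, 5 and 2 than MPP, and 7 and 0 than PreMegE. The ubiquitin ligase gene Peli1 led with the deubiquitinase gene Cyld, at 2.58 ± 0.28 and 2.50 ± 0.22 against HSC, 2.81 ± 0.28 and 2.30 ± 0.22 against MPP, and 3.02 ± 0.26 and 2.49 ± 0.21 against PreMegE.

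The module that links antigen receptors to IKK had 5 measured genes, with 2 higher and 2 lower in MPP than in HSC, led by the scaffold Card10 (-1.10 ± 0.16) and the adaptor Bcl10 (1.04 ± 0.21). In PreMegE 0 were higher and 3 lower than in HSC, led by Card10 (-1.69 ± 0.15) and Prkcb (-1.33 ± 0.18). Against MPP 0 were higher and 4 lower, led by Bcl10 (-1.38 ± 0.20) and the protease gene Malt1 (-1.36 ± 0.20). T cells had 3 higher and 1 lower than HSC, 3 and 0 than MPP, and 5 and 0 than PreMegE. The kinase genes Prkcb and Prkcq led, the latter encoding the protein kinase C that signals from the T cell receptor, at 3.14 ± 0.22 and 2.78 ± 0.16 against HSC, 3.75 ± 0.22 and 3.36 ± 0.16 against MPP, and 4.47 ± 0.21 and 3.19 ± 0.15 against PreMegE.

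Of 18 receptors and adaptors, 3 were higher and 0 lower in MPP than in HSC, led by Il1r1 (2.07 ± 0.20), the interleukin-1 receptor, and Tlr2 (0.77 ± 0.20), a receptor for bacterial lipoproteins. Il1r1 was at 8.53 ± 0.22 (SD) in MPP, 6.46 ± 0.20 in HSC, 5.47 ± 0.34 in PreMegE and 5.26 ± 0.01 in T cells, and 1 receptor gene was called without HSC replicate 2. PreMegE had 0 higher and 8 lower than HSC, led by Tnfrsf13c (-1.90 ± 0.26), which encodes the BAFF receptor, and Tlr2 (-1.55 ± 0.19). Against MPP 1 was higher and 8 lower, led by Il1r1 (-3.06 ± 0.18) and Tnfrsf13c (-2.36 ± 0.26). T cells had 6 higher and 7 lower than HSC, 6 and 7 than MPP, and 7 and 4 than PreMegE. The co-stimulatory receptor gene Tnfrsf4 led (3.90 ± 0.23, 4.04 ± 0.23 and 4.18 ± 0.22), followed by Tnfrsf9 against HSC (2.71 ± 0.26), Il1r1 against MPP (-3.27 ± 0.22) and Tnfrsf18 against PreMegE (3.74 ± 0.17).

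Of 9 ligand genes, 2 were higher and 0 lower in MPP than in HSC. Tnf differed by 0.88 ± 0.23 (adjusted p = 0.0201) and Ltb, which encodes lymphotoxin beta, by 0.75 ± 0.21 (0.0310), and neither was called without HSC replicate 1. In PreMegE 0 were higher and 2 lower than in HSC, and 1 higher and 4 lower than in MPP, led by Ltb (-2.85 ± 0.20 and -3.60 ± 0.20) and Tnfsf14 (-2.67 ± 0.23 and -2.01 ± 0.23). T cells had 4 higher and 1 lower than HSC, 3 and 0 than MPP, and 5 and 0 than PreMegE. Ltb led there, at 4.31 ± 0.24, 3.56 ± 0.24 and 7.16 ± 0.22, followed by Tnfsf11, which encodes RANKL, at 3.83 ± 0.20, 3.29 ± 0.20 and 4.10 ± 0.19.

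Of 26 textbook target genes of NF-kB measured, some of them also in the lists above, 13 were higher and 2 lower in MPP than in HSC, with a median of 0.60, led by the chemokine genes Ccl3 (5.41 ± 0.19) and Cxcl2 (4.58 ± 0.30). In PreMegE 3 were higher and 12 lower than in HSC (median -0.50), led by the cytokine subunit gene Ebi3 (-3.16 ± 0.19) and Cxcl2 (-2.67 ± 0.28). Against MPP 3 were higher and 15 lower (median -1.17), led by Cxcl2 (-7.25 ± 0.28) and Ccl3 (-5.74 ± 0.18). T cells had 11 higher and 6 lower than HSC, led by Cd83 (5.09 ± 0.22), a surface protein of activated immune cells, and Traf1. Against MPP 8 were higher and 10 lower, led by Cxcl2 (-6.99 ± 0.33) and Ier3 (-6.68 ± 0.35), and against PreMegE 14 were higher and 3 lower, led by Cd83 (4.92 ± 0.21) and Traf1. The means of Ccl3 in HSC, PreMegE and T cells, of Cxcl2 in PreMegE and T cells, and of Cd83 and the ligand gene Tnfsf11 in HSC and PreMegE lay under the lower quartile, where a difference is no exact fold. Of 22 target genes with a window in RefSeq's table, 11 held a kappaB match, where 4.46% of all genes in that table did. The list was chosen as known NF-kB targets, so its share is no independent support for the list and says nothing of binding here.

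For the 7 members whose means spanned at least 1, the 3 genes with the most similar pattern were taken by Pearson correlation of log2 levels over the 12 arrays, which reflects mainly the differences between populations. Nfkbia was closest to Csrnp1 (r = 0.992), Rgs2 (0.983) and Slc29a1 (0.974), and Nfkbiz to Abt1 (0.973), Nfkbid (0.973) and Csrnp1 (0.965). Tnfaip3 was closest to Zxdb (0.979), Chdh (0.971) and Serp1 (0.971), and Rel to Rasl11b (0.976), Dntt (0.952) and Slco3a1 (0.944). Dntt, which encodes the DNA polymerase that adds bases to antigen receptor joints, is one of the MPP markers above. Relb was closest to Irf4 (0.993), a transcription factor of activated lymphocytes, Sema4a (0.987) and Ms4a4c (0.986). Nfkbie was closest to Map4k4 (0.979), Slc9a9 (0.976) and Akna (0.973), and Rela to Bop1 (0.94), Thoc5 (0.928) and Slc35d1 (0.927). Many genes shared these patterns, with 465 above 0.9 for Relb, 228 for Nfkbie and 187 for Nfkbia. The counts were 97 for Nfkbiz, 77 for Tnfaip3, 42 for Rel and 25 for Rela.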

How the data were processed

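The authors deposited 1 intensity per probe set on a linear scale, made with RMA according to the submitters' processing notes, without a version. Which arrays were normalised together is not given in the sources used here. The deposited intensities of 45101 probe sets were taken to log2, with no further normalisation or filter, and the 64 control probe sets were set aside. GEO's platform annotation names 1 gene symbol for 34945 probe sets, several for 932 and none for 9160. A gene ID of RefSeq GRCm38.p6 was found for 34741 of the first. Each of the 18193 genes took its brightest probe set.

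Array titles gave group and replicate. The labels also describe PreMegE replicate 4 as replicate 3, so whether replicates 3 and 4 are separate is not known. The number in the title was used, and an alternative averaged replicates 3 and 4. One limma 3.58.1 model (R 4.3.3; lmFit, eBayes, two-sided) estimated a mean for each population from all 12 arrays, and p-values were Benjamini-Hochberg adjusted over all genes within a comparison, with a threshold of 0.05. The 2 arrays of CD4+ T cells rely on the spread of the other populations, and the number of arrays limits precision. Alternatives changed the probe set, the scaling, the filter, the arrays in the fit and a replicate block. The members and lists were chosen with earlier results of these data known. Named are all members, the 2 called genes of largest change per pathway list and comparison, and the 3 genes closest in pattern to each member. Genes of the immediate early and marker lists are given by counts and sums, and those named among the marker lists (Ms4a1, Pax5, Csf1r, Cd68, Cd14, Adgre1, Cd48, Satb1) and the sex-linked genes were chosen after their values were seen.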

Additional observations from a re-analysis of the deposited data

How the results depend on the processing

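The 48 differences (8 members in 6 comparisons) were recomputed under 22 alternatives, of which 2, chosen after seeing the data, kept HSC replicate 1 alone or HSC replicates 2 and 3 alone, the latter the same fit as without HSC replicate 1. Of 1056 values 987 kept their direction and side of the threshold, 15 changed sign without a call on either side, 34 lost the call, 11 gained it and 9 changed sign with a call on at least 1 side. Some of these values could hardly change, so the tally overstates how far they agree. Rel, Rela and Relb have 1 probe set each, and leaving out an array of a population not compared alters only the p-value. On the next brightest probe set, Nfkb2 reversed in CD4+ T cells against HSC (1.37) and MPP (1.52) and in PreMegE against MPP (0.11), Nfkbia in T cells against HSC (1.34) and Tnfaip3 in T cells against PreMegE (-0.021). That Tnfaip3 probe set lay near the lower quartile in T cells and PreMegE. With the mean of all probe sets Nfkb2 gave 0.64 in T cells against HSC and 0.57 against MPP, and Nfkbia 1.39 against HSC. Nfkbiz in T cells against HSC replicate 1 alone gave -0.16. The cause was not tested. With the mean of all probe sets 1 member was called between PreMegE and HSC. Against HSC replicate 1 alone 3 members were called in T cells, and 779 of all genes in MPP and 3395 in PreMegE, with fewer arrays in the fit.

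Leaving out each array in turn gave 5 to 7 members called in MPP against HSC, 2 to 3 in PreMegE against HSC, 5 to 6 in T cells against HSC, 6 to 8 in PreMegE against MPP, 5 to 7 in T cells against MPP and 6 to 7 in T cells against PreMegE. Of all 18193 genes the comparisons after the first, in the same order, gave 4264 to 5436, 5797 to 7149, 4861 to 6412, 5412 to 6795 and 4971 to 6303. Over all genes MPP against HSC gave 1280 (without MPP replicate 3) to 2341 (without PreMegE replicate 3), against 2058. Genes higher in MPP made up 56.4% of these calls, 44.4% after quantile normalisation and 46.8% after loess. Same-numbered arrays of different populations had correlated deviations of -0.119 to 0.413 and other pairs of -0.453 to 0.439. Between HSC and MPP these were -0.005, 0.156 and 0.069 for the same number and -0.140 to 0.0745 for other numbers. Such overlapping values cannot settle whether the replicate number pairs samples. A replicate block gave 6, 2, 5, 6, 6 and 7 members called, in the order of comparisons above, beside 2153, 5034, 7113, 5800, 6519 and 5929 of all genes. It ended the calls of Nfkbiz between T cells and HSC (1.60, adjusted p = 0.0826) and of Nfkb2 between PreMegE and MPP (-0.32, 0.123).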
